A study of Macaca fascicularis with 2 samples.

Results

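The genes described here encode the protein subunits of the cytosolic ribosome. They were taken as the gene symbols made of RPL or RPS and a number, with or without a closing A, X, Y, L or L and a further number, together with *RPSA*, *RPLP0*, *RPLP1* and *RPLP2*. This rule found 58 of the 29324 genes counted, 34 of the large subunit and 24 of the small subunit. Of 80 symbols of human cytosolic ribosomal proteins listed for this work, 53 were among these genes and 25 were not among the symbols of the gene table and were not analysed here, among them *RPLP1*, *RPS6*, *RPS26*, *RPS27* and *RPL39*. *FAU*, which encodes a ribosomal protein joined to a ubiquitin-like protein, does not follow the naming pattern and is given with the translation factors. The remaining 5 of the 58 were the paralogues *RPL22L1*, *RPL26L1*, *RPL39L*, *RPL3L* and *RPS27L*.

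Ribosomes join a large and a small subunit, each an assembly of ribosomal RNA and many different proteins, and translate mRNA into protein. The mRNAs of ribosomal proteins are abundant, stable and carry a 5′ terminal oligopyrimidine tract, through which mTOR and LARP1 control how actively they are translated. Resting lymphocytes are small cells that hold many of these mRNAs in store, so the share of mRNA given to ribosomal proteins is not a measure of protein synthesis. A few subunits have paralogues with a narrower expression, such as the muscle form *RPL3L*, the germ cell form *RPL39L*, the p53 target *RPS27L*, and *RPL22L1*, the partner of *RPL22*, a gene known for its part in T cell development.

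The cells were double positive (DP) T cells, bearing both CD4 and CD8, from the blood of 1 untreated cynomolgus monkey, 10 years old. CD4+ cells had been drawn from fresh blood mononuclear cells with magnetic beads, and cells bearing CD8 from those. A 5′ droplet library counted mRNA molecules as unique molecular identifiers (UMIs), and a second library of the same droplets counted antibody tags against CD4 and CD8α. The study asked which kinds of T cell this population holds and how they relate to the level of the 2 coreceptors.

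Of 8953 barcodes, each with gene and tag UMIs, 8830 were kept, with 31677119 gene UMIs, a median of 3145 per cell and a range of 502 to 25084. Cells were clustered with the 58 ribosomal protein genes left out and gene rows without a symbol kept in, and clusters were named from fixed markers. Naïve-like cells made up 5227 cells (clusters 0, 1 and 10), helper-like cells 767 (the Th17-like cluster 6, the Tfh-like cluster 3_1 and cluster 8, in which the 4 Th2 markers were carried but *CCR6* led), and Treg-like cells, positive for *FOXP3*, 582 (clusters 5 and 3_2). Cytotoxic cells numbered 1279, with 858 CD4 CTL-like cells in cluster 2 and 421 CD8 CTL-like cells in cluster 4. Against the label of the sample, 162 cells formed a B cell cluster, and the 115 of them in which *TRAC* and the 3 CD3 genes *CD3D*, *CD3E* and *CD3G* summed to no more than 1 UMI are called B-like here. There were also 269 Eomes+ Tr1-like, 53 innate-like, 47 cycling and 19 monocyte-like cells. Of the unnamed clusters, cluster 11 held 141 shallow cells led by *HBB*, with a median of 905 gene UMIs, of which 12.0% were mitochondrial, and cluster 3_0 held 284 cells. With 1 animal and 1 library, no test across animals was possible, and each 95% interval below is exact and covers counting error only.

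The 58 genes gave 7413730 UMIs, 23.4% of all gene UMIs in kept cells. Among these genes both subunits contributed about equally, with 49.96% of these UMIs from the large subunit. The 25 listed genes that were not analysed are not in this balance or in the ribosomal protein shares below. Any UMIs of theirs in gene rows without a symbol, which hold 24.7% of gene UMIs, stay in the totals. *RPL10*, a large subunit protein needed for the last step of its maturation, had the highest count with 341580 UMIs, which was 4.61% of the ribosomal protein UMIs and 10783 CPM, the count per 1000000 gene UMIs. It was followed by the small subunit genes *RPS13* with 266512, *RPS3A* with 257873, *RPS15A* with 250589 and *RPS12* with 246008 UMIs. A UMI counts 1 molecule at its 5′ end, so these counts carry no length correction. At the other end, *RPL3L* had 15 and *RPL39L* 46 UMIs, *RPL26L1* 555, *RPL31* 2758, *RPS27L* 3743, *RPL22L1* 9497 and *RPL26* 12139 UMIs, while the other 51 genes had over 20000 each. No member was at 0 UMIs. Genes of this family have many near-identical processed copies in primate genomes, and whether reads shared with such copies were lost from single genes was not tested.

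The summed share differed widely among the kinds of cell. It was highest in naïve-like cells, where the 58 genes took 26.7% of gene UMIs, and close to that in Treg-like cells at 25.7%. Helper-like cells had 21.6%, Eomes+ Tr1-like cells 19.8%, innate-like cells 17.6%, cytotoxic cells 16.9% and B-like cells 16.6%. The lowest shares among the named groups were those of monocyte-like cells, 13.2%, and of cycling cells, 12.8%. The shallow *HBB* cluster had 2.82%. The log2 ratio of the naïve-like share over the other was 0.30 (95% interval 0.30 to 0.31) for helper-like, 0.055 (0.051 to 0.059) for Treg-like (0.0010 in cells of 2500 to 4500 gene UMIs), 0.66 (0.65 to 0.66) for cytotoxic and 0.68 (0.67 to 0.69) for B-like cells. These 4 comparisons share the naïve-like cells and are given side by side.

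**Figure D1:**
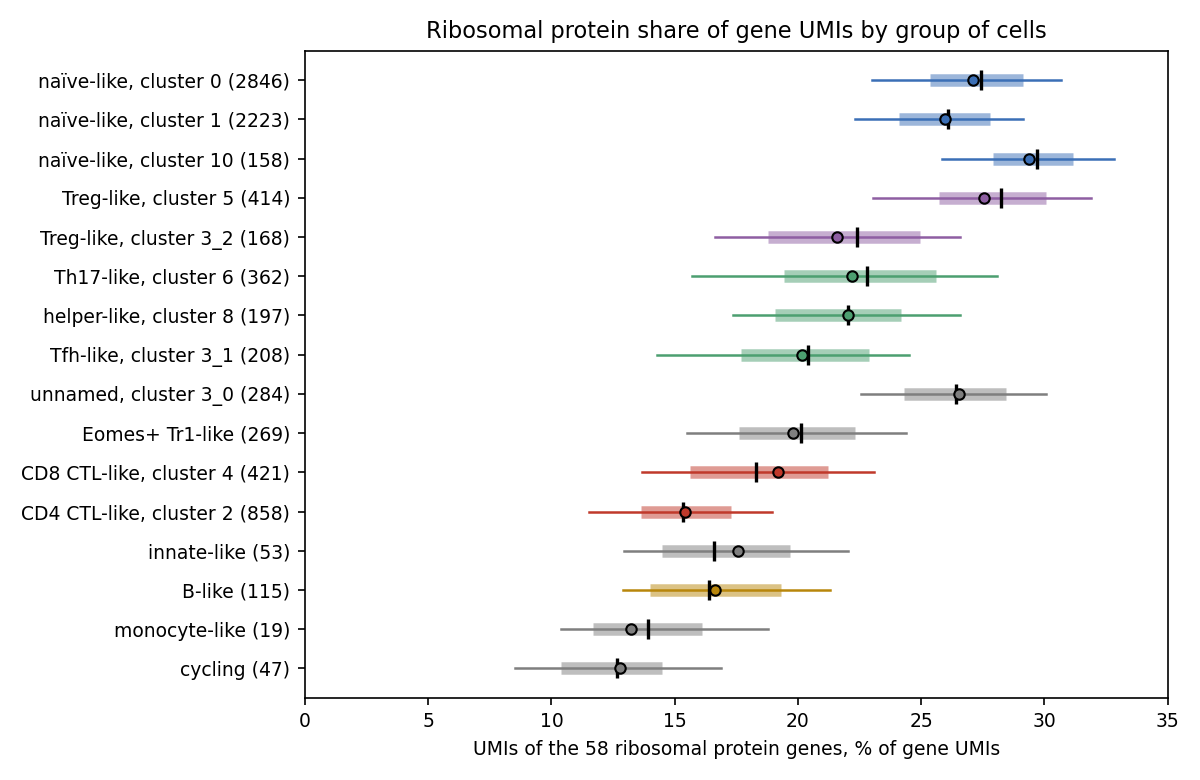
Share of gene UMIs taken by the 58 ribosomal protein genes (x axis, %) in each cluster or group (cell numbers in brackets); the point is the pooled share, the tick the median cell, the box the middle 50% of cells and the line the 10th to 90th percentile of cells. Naïve-like clusters lie between 26.0% and 29.4%, the CD4 CTL-like cluster at 15.4% and cycling cells at 12.8%.

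The share was a property of most single cells of a group rather than of a few. In naïve-like cells the 10th percentile, median and 90th percentile of the per-cell share were 22.7%, 26.9% and 30.3%. The corresponding values were 12.2%, 16.1% and 21.1% in cytotoxic cells and 12.9%, 16.4% and 21.3% in B-like cells. A share under the naïve-like 10th percentile was found in 95.2% of cytotoxic and 97.4% of B-like cells, in 57.4% of helper-like cells and in 20.8% of Treg-like cells. A share above the naïve-like median was found in 0.235% of cytotoxic, 10.8% of helper-like and 47.9% of Treg-like cells. Cytotoxic and B-like cells thus lay mostly under the bulk of the naïve-like cells, whereas the Treg-like cells overlapped it. Among cytotoxic cells, 99.5% of the CD4 CTL-like and 86.2% of the CD8 CTL-like cells were under the naïve-like 10th percentile.

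Clusters of the same name were not alike in this respect. Among naïve-like cells, cluster 10, of 158 cells, had 29.4% against 27.1% in cluster 0 and 26.0% in cluster 1. Treg-like cluster 5 had 27.6% and Treg-like cluster 3_2 had 21.6%, a log2 ratio of 0.35, so the near equality of Treg-like and naïve-like cells held for a sum of a cluster above and a cluster under the naïve-like level. With cluster 5 alone the log2 ratio of naïve-like over Treg-like cells turned to -0.048. CD8 CTL-like cells had 19.2% and CD4 CTL-like cells 15.4%, a log2 ratio of 0.32. The 3 helper-like clusters were closer, with 22.2% in the Th17-like cluster, 22.0% in cluster 8 and 20.1% in the Tfh-like cluster. The unnamed cluster 3_0, which was divided from the same parent as the Tfh-like cells, had 26.5%, near the naïve-like share.

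A share can differ through the UMIs of the 58 genes or through all the others, and the counts per cell were therefore compared. The others include any UMIs of the 25 listed genes that were not analysed. Mean ribosomal protein UMIs per cell were 814 in naïve-like, 700 in cytotoxic, 819 in B-like, 946 in Treg-like and 1100 in helper-like cells. On the log2 scale, the naïve-like mean differed by 0.22 from the cytotoxic, by -0.01 from the B-like, by -0.22 from the Treg-like and by -0.44 from the helper-like mean. The UMIs of all other genes differed more in each of these pairs, with log2 ratios of -0.62, -0.88, -0.29 and -0.83 in the same order. B-like cells thus carried nearly the same number of ribosomal protein UMIs as naïve-like cells among many more UMIs of other genes. In helper-like cells both counts were higher than in naïve-like cells, that of the other genes by more. Cytotoxic cells were the ones among these 4 groups with fewer ribosomal protein UMIs per cell than naïve-like cells. Their clusters differed, with a mean of 574 in the CD4 CTL-like and 957, above the naïve-like mean, in the CD8 CTL-like cluster. The medians, 541 and 717, were both under the naïve-like median. Cycling cells, with a median of 830 ribosomal protein UMIs, were near the naïve-like median of 761, but had a median of 6186 other UMIs against 2092. UMIs per cell also follow how well a droplet was captured, and the part of that in these counts was not tested.

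**Figure D2:**
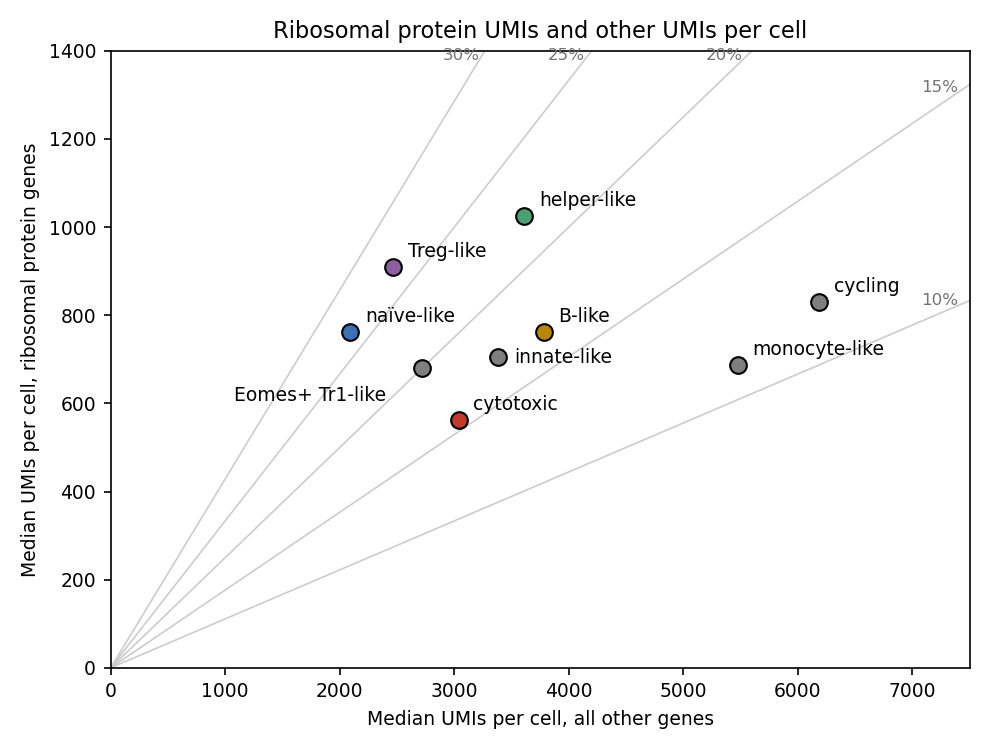
Median UMIs per cell of the 58 ribosomal protein genes (y axis) against the median UMIs per cell of all other genes (x axis) for 9 groups of cells; grey lines mark equal shares of 10% to 30%. Naïve-like and B-like cells lie at nearly the same height, 761 and 762 UMIs, while cytotoxic cells lie lowest at 562.

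Depth differed between the groups, with a median of 2857 gene UMIs in naïve-like, 3375 in Treg-like, 3603 in cytotoxic, 4549 in B-like and 4667 in helper-like cells. The naïve-like share hardly moved with depth, being 26.4% in cells under 2500 UMIs, 26.8% from 2500 to 3500, 26.3% from 3500 to 4500 and 26.9% above. Cytotoxic cells had 14.9%, 15.9% and 15.4% in the first 3 of these bins and 19.1% in the 297 cells above 4500 UMIs. Treg-like cells had 24.5%, 26.5%, 26.9% and 23.4% in the 4 bins, above the naïve-like share from 3500 to 4500 UMIs and under it in the other bins. Helper-like cells had 17.4% in 23 cells under 2500 UMIs, then 20.04%, 21.4% and 21.9%, under the naïve-like share in each bin. Of the 1279 cytotoxic cells, 182 were among the 530 kept cells with the highest doublet scores, against 185 of the 5227 naïve-like cells. Without these cells the naïve-like over cytotoxic log2 ratio was 0.76, larger than with them. The scoring called 0 doublets and was taken not to have worked, so this value does not show the effect of doublets.

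Gene by gene, the ribosomal protein genes mostly followed their sum. With every group drawn from the same library, a gene was called when its CPM in one group was at least 25% above that in the other. Genes needed 200 UMIs in the summed groups, which 56 of the 58 had, *RPL3L* and *RPL39L* being too rare. Against cytotoxic cells, 48 of the 56 were higher in naïve-like cells, whereas 20.7% of all genes tested were, and 1, *RPS27L*, was lower, against 39.5% of all genes. The median log2 ratio of the 56 genes was 0.58 in this comparison, against -0.17 for all genes. Against B-like cells, 48 of the 56 were higher in naïve-like cells and *RPS27L* was lower, against 30.8% and 33% of all genes. Against helper-like cells, 21 were higher and *RPS27L* was lower, against 19.8% and 28.8%. Against Treg-like cells, *RPL31* was higher and *RPS27L* lower, where 20% and 12.4% of all genes were called, so both counts of members were under the background. Because the 58 genes are a large part of each library, their excess lowers the CPM of all others. With CPM scaled to the genes outside the 58 alone, 52 members were higher against cytotoxic, 52 against B-like, 31 against helper-like and 1 against Treg-like cells. Of all genes, 29.7%, 40.3%, 26.4% and 21.5% were then higher in the same order. The call of *RPS27L* stood in each. Of all genes, 28.6%, 23.0%, 22.6% and 11.6% were then lower, again in the same order.

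Within the family, the genes were then compared as shares of the ribosomal protein UMIs alone, which removes the difference in the sum. With this share at least 25% above that in the other group, 4 of 55 genes were over-represented and 8 under-represented in naïve-like against cytotoxic cells. There were 3 and 8 against B-like, 2 and 8 against helper-like, and 1 and 1 against Treg-like cells. The standard deviation of the log2 ratios over genes was 0.33, 0.32, 0.29 and 0.15 in the same order. The balance of the subunits moved little, the large subunit having 49.7% of ribosomal protein UMIs in naïve-like, 49.9% in helper-like, 50.3% in Treg-like, 50.9% in cytotoxic and 51.1% in B-like cells.

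A few small subunit genes led on the naïve-like side. *RPS3A*, which encodes a small subunit protein near the mRNA exit, had 10266 CPM in naïve-like and 4538 CPM in cytotoxic cells, a fold of 2.26 against 1.58 for the sum. Its log2 ratio within the family was 0.52, and it was 0.41 (0.39 to 0.43) against helper-like, 0.32 against B-like and 0.13 against Treg-like cells. *RPS24*, a small subunit gene of which mutations are known from Diamond-Blackfan anaemia, had 5144 CPM in naïve-like, 4353 in Treg-like, 3196 in helper-like, 2425 in cytotoxic and 2076 in B-like cells. Its log2 ratio within the family was 0.43 against cytotoxic, 0.38 against helper-like, 0.63 against B-like and 0.19 against Treg-like cells. *RPS13* followed with 10258 CPM in naïve-like and 5074 in cytotoxic cells, and *RPL32* with 8362 and 4282 CPM. *RPS15A* and *RPL30* stood out against B-like cells, with 9437 against 4536 CPM and 8170 against 4122 CPM.

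The genes that went the other way kept a level closer to, or above, the naïve-like one while most of the family was lower. *RPS2*, a small subunit gene, had 1361 CPM in naïve-like against 1624 in helper-like cells (log2 ratio within the family -0.56), 1171 in cytotoxic (-0.44) and 1290 in B-like cells (-0.60). *RPL36*, of the large subunit, had 1775 CPM in naïve-like and 1550 in cytotoxic cells (-0.46). *RPL23A* had 910 CPM in naïve-like against 1079 in helper-like cells (-0.55) and 784 in B-like cells (-0.46). In the Treg-like comparison, the ratios within the family ran from 0.33 (0.10 to 0.58) for the sparse *RPL31*, with 97 against 74 CPM, through 0.19 for *RPL23* and 0.14 for *RPL22* to -0.30 for *RPL36*, -0.14 for *RPL3* and -0.70 for *RPS27L*.

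**Figure D3:**
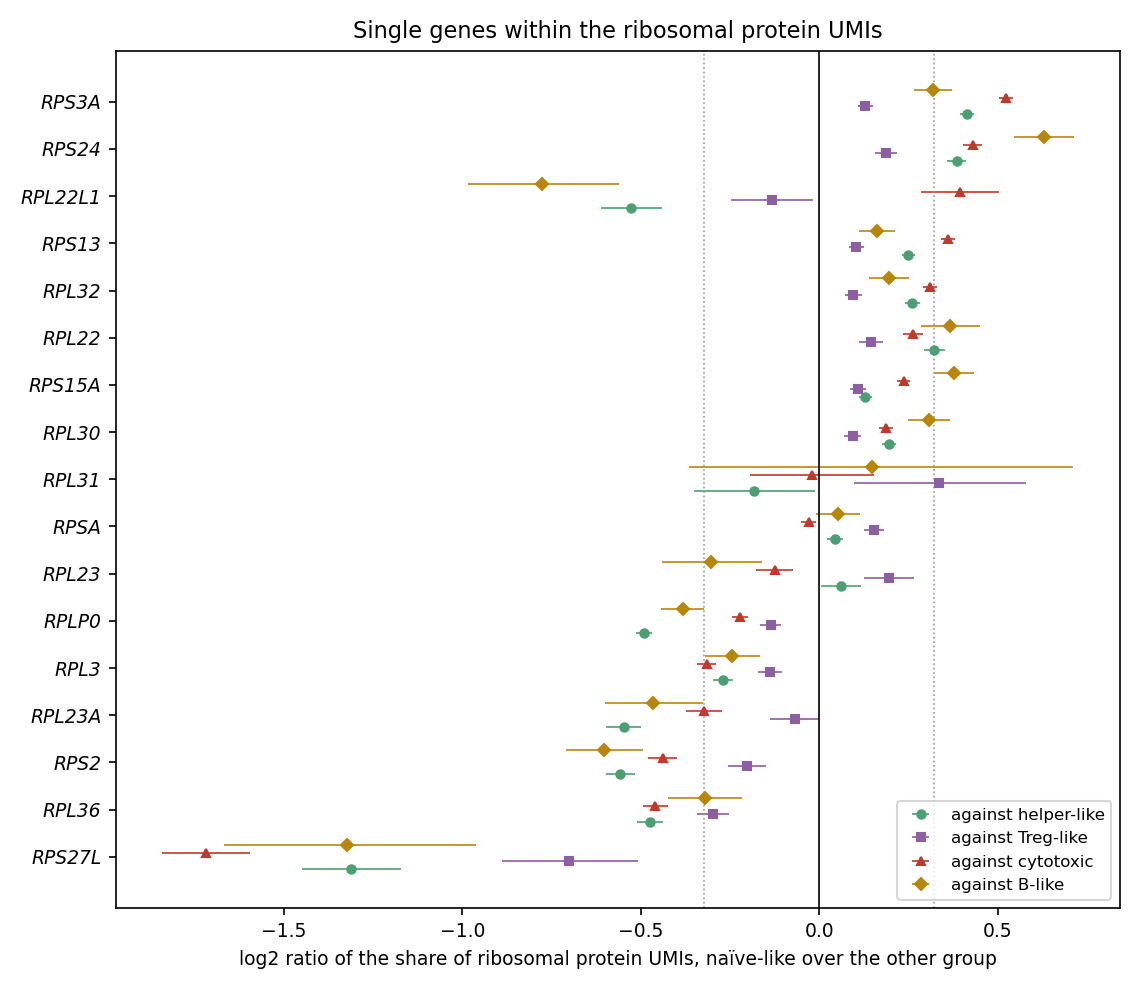
Log2 ratio of a gene's share of the ribosomal protein UMIs, naïve-like over the other group (x axis), for 17 of the genes named (y axis), with 95% counting intervals; symbols mark the 4 other groups and dotted lines a share 25% above the other. *RPS3A* and *RPS24* lie to the right of 0 in each comparison and *RPS27L*, *RPL36* and *RPS2* to the left, while *RPL22L1* lies to the right against cytotoxic cells and to the left against the other groups.

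The genes of the ribosomal stalk and *RPSA* were taken separately. The stalk recruits translation factors to the large subunit, with *RPLP0* as its base and *RPLP2* as one of its acidic proteins. *RPLP0* had 5046 CPM in naïve-like, 5342 in Treg-like, 5750 in helper-like, 4108 in B-like and 3735 CPM in cytotoxic cells, so it was highest in helper-like cells, in contrast to the family sum. Its log2 ratio within the family was -0.49 against helper-like and -0.22 against cytotoxic cells. *RPLP2* had 3315 CPM in naïve-like, 2881 in helper-like and 2387 in cytotoxic cells (-0.18 against the last). *RPSA*, a small subunit protein also known as a laminin receptor, had 6334 CPM in naïve-like and 4106 in cytotoxic cells, which was the family's own fold, with a log2 ratio within the family of -0.03.

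The same genes were examined in pairs of clusters that do not share cells with each other. Treg-like cluster 5, with the higher family share, was above Treg-like cluster 3_2 in its share of *RPS24* (log2 ratio within the family 0.26), *RPS3A* (0.24) and *RPS13* (0.19), and under it in *RPL26* (-0.35) and *RPLP0* (-0.34). CD8 CTL-like cells, with a higher family share than CD4 CTL-like cells, had higher shares of *RPS3A* (0.22), *RPS13* (0.16) and *RPS24* (0.15) and a lower one of *RPS27L* (-0.69, -0.90 to -0.49). Naïve-like cluster 10 did not follow this order. It had the highest family share, yet *RPS24* (-0.29) and *RPS3A* (-0.17) took less and *RPS2* (0.26), *RPS19* (0.22) and *RPL36* (0.21) took more of it than in naïve-like clusters 0 and 1. Over clusters, *RPS3A* took 3.88% and 3.86% of the ribosomal protein UMIs in clusters 0 and 1, 3.68% in Treg-like cluster 5, 3.45% in cluster 10, 3.11% in Treg-like cluster 3_2, 3.03% in the Tfh-like, 2.90% in the CD8 CTL-like, 2.89% in the Th17-like, 2.75% in cluster 8 and least, 2.4999%, in the CD4 CTL-like cluster.

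*RPS27L*, a paralogue of *RPS27* known as a target of p53, was the one member called lower in naïve-like cells in each of the 4 comparisons. Against B-like cells this call was lost in cells of 2500 to 4500 gene UMIs, where 0 members were called lower and its log2 ratio within the family was -0.89 in place of -1.32. It had 81.4 CPM (77.0 to 85.9) in naïve-like, 127 (113 to 143) in Treg-like, 127 (99.4 to 160) in B-like, 164 (151 to 177) in helper-like and 170 (159 to 181) in cytotoxic cells. The intervals of the naïve-like cells and of these 4 groups did not overlap, while those of helper-like and cytotoxic cells did. Cycling cells had 414 CPM (353 to 483), the highest level among the named groups. The Treg-like clusters differed, with 88.8 CPM in cluster 5 and 210 in cluster 3_2, and so did the cytotoxic ones, with 187 in the CD4 CTL-like and 144 in the CD8 CTL-like cluster. Within each of these pairs the level of *RPS27L* was higher in the cluster with the lower family share, though the order did not hold over the 4 clusters together. *RPS27* itself was not analysed here, so no ratio of the pair could be formed.

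*RPL22* and *RPL22L1* encode closely related large subunit proteins, and their ratio changed between groups. Per 100 UMIs of *RPL22* there were 7.33 of *RPL22L1* in naïve-like, 6.69 in cytotoxic, 4.07 in innate-like, 8.87 in Treg-like, 9.44 in Eomes+ Tr1-like, 13.2 in helper-like, 16.2 in B-like and 28.0 in cycling cells. *RPL22* had its highest level in naïve-like cells, at 4305 CPM, and its lowest in cycling cells, at 1540 CPM. *RPL22L1* had 315 CPM in naïve-like, 153 (142 to 163) in cytotoxic and 432 (369 to 502) in cycling cells. Cytotoxic cells were lower than naïve-like cells in both genes, with a ratio near theirs, whereas in B-like cells *RPL22* was at 2085 CPM with *RPL22L1* at 337 CPM. Helper-like cells were divided, with 15.8 per 100 in the Th17-like, 14.3 in the Tfh-like and 6.80 in cluster 8, where *RPL22L1* was at 201 CPM against 438 CPM in the Th17-like cells.

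**Figure D4:**
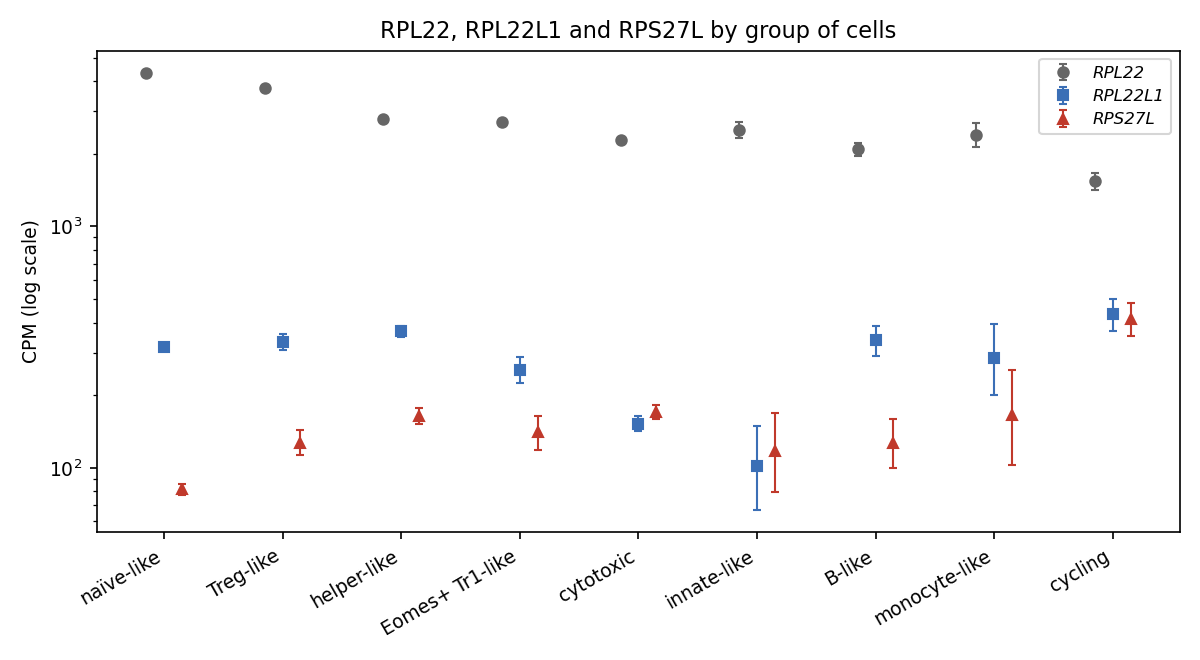
Level in CPM (log y axis) of *RPL22*, *RPL22L1* and *RPS27L* in 9 groups of cells, with 95% counting intervals. *RPL22* is highest in naïve-like cells (4305 CPM) and lowest in cycling cells (1540 CPM), and *RPS27L* is lowest in naïve-like cells (81.4 CPM) and highest in cycling cells (414 CPM).

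The rare paralogues appeared in few cells. *RPL3L*, the muscle paralogue of *RPL3*, had 15 UMIs in 12 cells, of which 10 UMIs lay in 8 of the 115 B-like cells (6.96% of cells, 3.05% to 13.2%, 17.7 CPM). A further 2 UMIs lay in the B cell cluster in 2 of the 47 cells with more T cell UMIs, 1 in a cycling cell and 2 in 1 cell of an unnamed cluster. In the 8177 T and innate-like cells there were 0, which by a limit of 3 counts allows a share of cells with a UMI of up to 0.0367% and sets no limit on the share of cells that express the gene. *RPL39L*, the germ cell paralogue of *RPL39*, was counted in 6 of 47 cycling cells (12.8%, 4.83% to 25.7%, 15.4 CPM) and in 36 of the 8177 T and innate-like cells (0.440%, 1.26 CPM). Cycling cells were deeper, with a median of 7176 gene UMIs, which raises the share of cells with a UMI but not the CPM. *RPL26L1*, a near copy of *RPL26*, had 502 UMIs in 484 of the 8177 cells, or 17.5 CPM, and was at 4.25 per 100 UMIs of *RPL26* in naïve-like and 12.4 in cycling cells. These low counts rest on few molecules, and for the near copies a read of the common gene assigned to its paralogue would weigh heavily, which was not tested.

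The spread of single members among cells of the same cluster was compared with that which counting would give. The variance of a gene's UMIs over cells was divided by that expected from each cell's total of ribosomal protein UMIs. The median ratio over genes was 1.03 in naïve-like cluster 0, 1.05 in CD4 CTL-like cluster 2, 1.10 in Treg-like cluster 5, and 1.23 in both the Th17-like cells and the B-like cells. The ratio was above 1 for 40 of 55 genes in naïve-like cluster 0, 40 of 53 in the CD4 CTL-like, 49 of 53 in the Treg-like and 51 of 53 in the Th17-like cluster, and for 43 of 47 in B-like cells. The typical gene thus lay close to counting in the first 2 clusters and above it in the Th17-like and B-like cells. For the same variation among cells, this ratio is larger where a cell has more UMIs of the gene. Mean ribosomal protein UMIs per cell were 734 in cluster 0, 574 in cluster 2 and 974 in cluster 5. They were 1195 in Th17-like and 819 in B-like cells. How much of the differences between sets and between genes follows from this was not tested. *RPS12*, a small subunit gene, was among the 5 genes with the largest ratio in 5 of 5 sets, and *RPL10* and *RPS19* in 4 each. *RPS19*, a small subunit gene also known from Diamond-Blackfan anaemia, reached 2.63 in the CD4 CTL-like cells and 2.02 in those of them with 2500 to 4500 gene UMIs. Its share of a cell's ribosomal protein UMIs there was 1.43% at the 10th percentile, 2.36% at the median, 3.56% at the 90th percentile and 12.2% at most. In Th17-like cells *RPS12* was at 2.66, *RPS19* at 2.27 and *RPLP0* at 2.10, and in B-like cells *RPL7A* was at 2.90, *RPS12* at 2.90 and *RPS2* at 2.26. In B-like cells of 2500 to 4500 UMIs the ratio of *RPL7A* was 0.761 and that of *RPS2* 0.707, while *RPS12* had 1.64. The smallest ratios in naïve-like cluster 0 were those of *RPL7A* (0.926), *RPL11*, *RPS9*, *RPL30* and *RPL5*.

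The antibody tags gave a second division of the cells, which used no mRNA. At thresholds of 146 CD4 and 503 CD8 tag UMIs, 6354 cells were CD4hiCD8lo, 1942 CD4hiCD8hi, 417 CD4loCD8hi and 117 CD4loCD8lo. The ribosomal protein share was 24.5% in CD4hiCD8lo, 21.6% in CD4hiCD8hi, 21.1% in CD4loCD8hi and 16.5% in CD4loCD8lo cells, of which 66 were B-like. The log2 ratio of CD4hiCD8lo over CD4loCD8hi cells was 0.21 (0.21 to 0.22). In this comparison 10 of 56 members were at least 25% higher in CD4hiCD8lo cells and 0 lower, against 20.4% and 21.9% of all genes, so the count of higher members was near the background and that of lower members under it. *RPS24* (4502 against 3042 CPM) and *RPS3A* (8937 against 6348 CPM) led on the CD4hiCD8lo side, with log2 ratios within the family of 0.35 and 0.28.

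The gates held different mixtures of cells. Naïve-like cells were 71.6% of CD4hiCD8lo, 27.3% of CD4hiCD8hi and 30.2% of CD4loCD8hi cells, and cytotoxic cells 7.73%, 29.6% and 49.2%. Within naïve-like cells the share was 26.5% in CD4hiCD8lo, 26.9% in CD4hiCD8hi and 29.6% in CD4loCD8hi cells, the reverse of the order over all cells, with a log2 ratio of CD4hiCD8lo over CD4loCD8hi of -0.16. Within cytotoxic cells it was 16.1%, 17.6% and 16.6%, a log2 ratio of -0.050. The difference over all cells was therefore not found within either kind of cell. Of the 126 naïve-like CD4loCD8hi cells, 115 belonged to cluster 10, which they made up to 72.8%. The CD4loCD8hi gate as a whole spanned both levels, with a 10th percentile of 13.0%, a median of 18.6% and a 90th percentile of 31.1%. When the cells of a kind were divided into 4 equal sets by the level of a tag, naïve-like cells lay between 26.5% and 27.0% in every set. Cytotoxic cells of the set highest in the CD4 tag, with a median of 5560 gene UMIs, had 18.7%, against 15.7% to 16.4% in the other sets of that tag. The set highest in the CD8 tag had 18.2%, against 16.0% to 16.9% in the others, with a median of 3722 gene UMIs against 3458 to 3727.

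**Figure D5:**
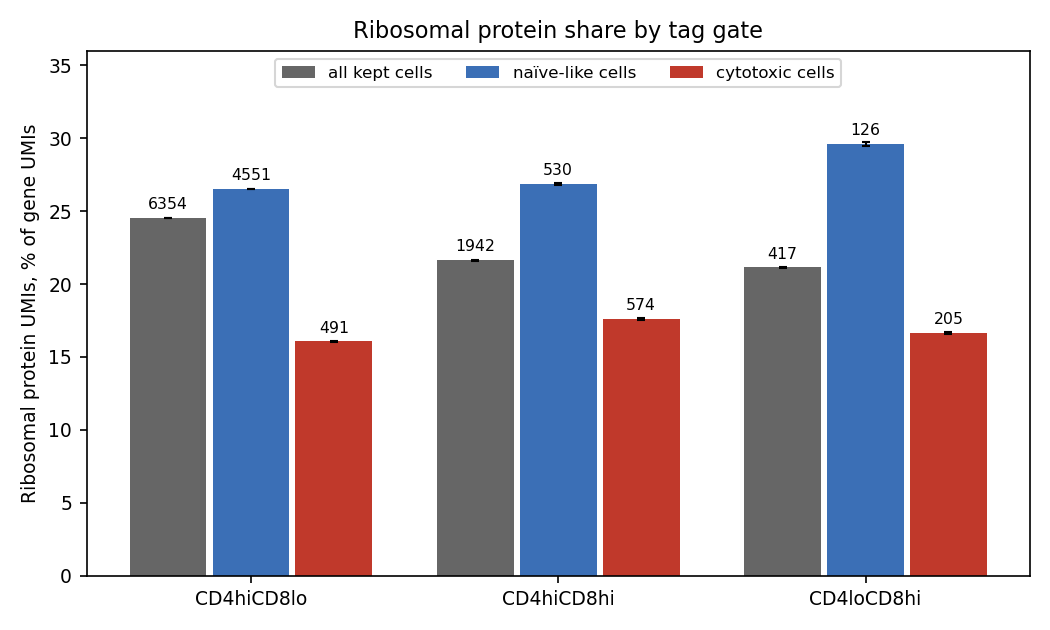
Ribosomal protein share of gene UMIs (y axis, %) in the 3 larger tag gates over all kept cells and within naïve-like and cytotoxic cells; bars are pooled shares, error bars 95% counting intervals and the numbers above them cells. Over all cells the CD4hiCD8lo bar is the highest at 24.5%, while among naïve-like cells the CD4loCD8hi bar is, at 29.6%.

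Other genes of translation were counted in the same way. Of 9 elongation factors and ribosome-associated genes, 7 were at least 25% higher in naïve-like than in cytotoxic cells and 0 lower. Of all genes 20.7% were higher and 39.5% lower there. The median log2 ratio of the 9 genes was 0.44, against -0.17 over all genes. Against B-like cells 6 were higher, where 30.8% of all genes were. Against helper-like cells 1 and against Treg-like cells 0 were higher, under the 19.8% and 20% of all genes. None of the 9 was lower in any of these 3 comparisons, where 33%, 28.8% and 12.4% of all genes were. Many mRNAs of the 9 genes also begin with a terminal oligopyrimidine tract. *EEF1A1*, which brings aminoacyl-tRNA to the ribosome, had 18253 CPM in naïve-like and 11069 in cytotoxic cells (log2 ratio 0.72). The poly(A)-binding protein gene *PABPC1* had 1575 and 889 CPM (0.83), and *RACK1*, a scaffold on the small subunit, 3580 and 2226 CPM (0.69). *FAU*, at 4953 and 4662 CPM, differed less (0.09). Against B-like cells, *TPT1* had a log2 ratio of 1.01 and *EEF1A1* 0.68.

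The initiation factors, the ribosome biogenesis factors and the proteins of the mitochondrial ribosome were called higher in naïve-like cells at shares near or under those of all genes, which were 20.7% against cytotoxic, 19.8% against helper-like, 20% against Treg-like and 30.8% against B-like cells, apart from a few more biogenesis genes against cytotoxic and helper-like cells. Of 26 initiation factor genes, 5 were higher and 4 lower in naïve-like than in cytotoxic cells. There were 4 and 5 against helper-like, 2 and 2 against Treg-like, and 6 and 8 against B-like cells. Of all genes, 39.5%, 28.8%, 12.4% and 33% were lower in the same order. The eIF3 subunit genes *EIF3E* (496 against 255 CPM, log2 ratio 0.96), *EIF3M* (0.78) and *EIF3K* (0.64) were among the higher ones against cytotoxic cells. *EIF6*, which keeps the subunits apart (-0.73), and *EIF4EBP1*, an mTOR-controlled repressor of translation initiation (-0.72), were among the lower ones. *EIF4EBP1* was also lower against helper-like (-0.62), Treg-like (-0.74) and B-like cells (-1.10), and *EIF5* against B-like cells (-1.15), where *EIF3K* (0.72) and *EIF3E* (0.64) were higher. Of 25 biogenesis genes, 7 were higher and 6 lower against cytotoxic, 6 and 3 against helper-like, and 2 and 2 against Treg-like cells, and of 24 against B-like cells 5 and 8. Past a 1.5-fold difference were *RRP9* (1.41), *RSL24D1* (0.90) and *FBL* (0.69) against cytotoxic, *RRP9* (0.79), *RRS1* (0.71) and *RSL24D1* (0.60) against helper-like, and *RIOK1* (-0.61) against Treg-like cells. Against B-like cells these were *RSL24D1* (0.76), *RRS1* (0.64, from 5 UMIs in B-like cells), *NOB1* (-0.65), *NOP58* (-0.86), *PES1* (-0.90) and *DKC1* (-1.11).

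The genes of the mitochondrial ribosome, which is made of other proteins, were called less often than all genes in both directions against cytotoxic, helper-like and B-like cells, and more of them were lower than higher there. Against cytotoxic cells 6 were higher in naïve-like cells and 13 lower, against helper-like cells 4 and 10, against B-like cells 6 and 17 and against Treg-like cells 6 and 3, of 62 or 63 tested. *MRPL10* was lower in naïve-like than in cytotoxic (-1.29) and helper-like cells (-0.98), as were *MRPL13* (-1.06 and -0.75) and *MRPL28* (-0.79 and -0.76). *MRPL24* (-0.81), *MRPL54* (-0.74), *MRPL12* (-0.73), *MRPS12* (-0.64), *MRPL27* (-0.64) and *MRPS14* (-0.61) also passed a 1.5-fold difference against cytotoxic cells, and so did, higher, *MRPS35* (0.65) and *MRPL30* (0.66). *MRPL44* (0.63) and *MRPS30* (-0.61) differed against helper-like, *MRPL50* (0.63) against Treg-like, and *MRPL35* (-1.24), *MRPS24* (-0.87), *MRPL30* (-0.64) and *MRPS23* (-0.60) against B-like cells.

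Of 10 regulators of ribosomal protein transcription and translation, 1 was higher and 3 were lower in naïve-like than in cytotoxic cells, both under the 20.7% and 39.5% of all genes. *MYC*, a transcriptional activator of ribosome production, had 34.5 CPM in naïve-like (551 UMIs) and 9.26 CPM in cytotoxic cells (49 UMIs), a log2 ratio of 1.90 (1.48 to 2.35). *MXD4*, an antagonist of MYC, had 20.7 and 47.2 CPM, a log2 ratio of -1.19 (-1.43 to -0.94). *EIF4EBP2*, a repressor of translation initiation, had -0.65. Against helper-like cells 0 were higher and 3 lower, beside 19.8% and 28.8% of all genes. Against Treg-like cells 3 were higher and 0 lower, beside 20% and 12.4%. Of 9 against B-like cells 3 were higher and 1 lower, beside 30.8% and 33%. In the B-like comparison *RPS6KB2* had 0.76 and *EIF4EBP2* 0.74 (9 UMIs). *MTOR* had 1.31 there from 3 UMIs in B-like cells, with an interval of -0.25 to 3.60. Between the gates, CD4hiCD8lo cells were higher than CD4loCD8hi cells in *MYC* (31.5 against 14.6 CPM, log2 ratio 1.11), *RRP9* (1.19), *NOP2* (0.72) and *BRIX1* (0.71) and lower in *NOLC1* (-0.70). In the gates, 2 of 9 elongation, 2 of 26 initiation, 5 of 25 biogenesis, 10 of 63 mitochondrial ribosome and 4 of 10 regulator genes were higher, and 0, 1, 5, 6 and 2 were lower, against 20.4% and 21.9% of all genes.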

How the data were processed

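The submitters' processing notes name Cell Ranger 3.1.0, STAR 2.5.1b and Seurat 3.1.3, and the study's methods the build Macaca_fascicularis_5.0. The authors deposited unnormalised whole UMI counts for every gene or antibody tag in each barcode called as a cell. Here barcodes were kept that had between 200 and 4000 genes and a mitochondrial share no higher than 20%, which removed 123 barcodes. Of the gene rows, 7899, with 24.7% of UMIs, carry an identifier without a symbol, were kept in the totals and could not be searched for members. Clustering (Seurat 5.3.0 in R 4.3.3, 2000 variable genes, 20 components, resolution 0.8) left the members out, and 1 cluster that carried both Treg and Tfh markers was divided at resolution 0.5. Clusters were named from fixed markers by rules set after the clusters were seen, so names may differ from those of the study. Scrublet (scanpy 1.11.5) called 0 doublets and was taken not to have worked; no doublets were removed. Tag gates came from a 2-component mixture of log10 tag counts (scikit-learn 1.9.0). UMIs were summed per group and divided by the group's total, as shares, CPM or shares of the members' UMIs, with exact binomial or Poisson 95% intervals (scipy 1.17.1) that cover counting error only.

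Members and gene lists were chosen with earlier results of these data known. Genes named are, for each comparison, the 5 members with the largest share ratio within the family in each direction among those with at least 500 UMIs, the 5 largest and 5 smallest spread ratios, the stalk genes, *RPSA*, paralogues, and genes of the other translation lists past 1.5-fold. Some genes that this rule names are not reported here. The clusters compared outside the main comparisons, *RPS19* in naïve-like cluster 10 and the single highest genes were chosen after their values were seen. On counts simulated for the 6886 genes of the naïve-like and cytotoxic comparison, the direction was recovered for 96% of genes planted 25% higher. It was recovered for 100% of those planted 1.5-fold higher. For the 6020 genes of the B-like comparison the values were 82% and 98%. The interval excluded 0 for 54% of genes planted 25% higher in the cytotoxic and 24% in the B-like comparison. These counts were drawn with counting error only, without added variation between cells or animals.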

Additional observations from a re-analysis of the deposited data

How the results depend on the processing

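No paired analysis was possible because every group of cells came from the same gene library of 1 animal. Every alternative kept naïve-like cells above helper-like, cytotoxic and B-like cells. Of 49 alternative values of the 5 share ratios, 17 lay within the counting interval and 3 changed sign. These 3 were chosen after seeing the data, as were clustering on genes with symbols and the runs with fewer clusters or cells of 1 kind: Treg-like cluster 5 alone (-0.048) and the gates within naïve-like (-0.16) and cytotoxic cells (-0.050). Leaving mitochondrial UMIs out gave 0.31 for helper-like, 0.67 for cytotoxic and 0.66 for B-like cells. Per-cell means gave 0.037 for Treg-like, 0.70 for cytotoxic cells and 0.26 for the gates. Cells of 2500 to 4500 UMIs gave 0.33 for helper-like, 0.0010 for Treg-like, 0.77 for cytotoxic, 0.63 for B-like cells and 0.26 for the gates, which leaves almost no Treg-like difference. Without high doublet scores the values were 0.31 for helper-like and 0.76 for cytotoxic cells. Clustering with all genes gave 0.32, 0.062, 0.67 and 0.69 for helper-like, Treg-like, cytotoxic and B-like cells. Resolution 0.4 gave 0.30, 0.060 and 0.66 for the first 3, and resolution 1.2 gave 0.21 for helper-like and 0.65 for cytotoxic cells. Clustering on genes with symbols gave 0.28, 0.075 and 0.65. Helper-like cells without cluster 8 gave 0.31, CD4 CTL-like cells alone 0.79 and CD8 CTL-like cells alone 0.47, and higher tag thresholds gave 0.20. At 1.5-fold, members higher in naïve-like cells were 3 against helper-like, 0 against Treg-like and 28 against cytotoxic cells, of 56 tested. Of all genes 8.63%, 7.48% and 11.8% were higher in the same order, so the helper-like count was under the background. In CD4hiCD8lo cells 0 members were higher, against 9.66% of all genes. In cells of 2500 to 4500 UMIs, 0 members were lower against B-like cells, where 33.3% of all genes were. At 1.5-fold within the family, 1 gene passed against helper-like, 1 against Treg-like, 1 against cytotoxic, 5 against B-like cells and 0 between gates, where 10, 2, 12, 11 and 2 had passed the 25% difference. For the named members, 245 of 290 alternative values lay within the counting interval and 0 changed sign. The cause of these shifts was not tested.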
